A study of Homo sapiens with 19 samples.

Results

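Integrins are the receptors by which cells hold on to extracellular matrix, and the 10 genes described here encode 6 alpha subunits (ITGA1, ITGA2, ITGA3, ITGA5, ITGA6 and ITGAV) and 4 beta subunits (ITGB1, ITGB3, ITGB4 and ITGB5). The genes were taken by name, with earlier results of these data known, out of 22760 genes with at least 1 spliced read. All 10 were detected. Of their 323 introns annotated in GENCODE 29, 295 had at least 1 read, out of 253219 annotated introns with a read in all. A gene's level is given as CPM, its reads on annotated introns per 1000000 such reads assigned to genes in that library. A splice form is given by the reads that cross each intron.

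An integrin is a pair of 1 alpha and 1 beta subunit, each crossing the membrane and ending in a short cytoplasmic tail. ITGA3 and ITGA6 make laminin receptors, ITGA1 and ITGA2 collagen receptors, and ITGA5 and ITGAV receptors for fibronectin and vitronectin. ITGB1 pairs with most alpha subunits, ITGB3 and ITGB5 pair with ITGAV, and ITGB4 pairs with ITGA6 in hemidesmosomes, the anchoring points of epithelial cells. ITGA3 and ITGA6 each have 2 alternative tails, A and B, set by whether a tail exon is spliced in.

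Spliced reads were counted in 19 libraries of ribosomal-RNA-depleted RNA from established human cell lines. There was 1 library each of A375 melanoma cells (total RNA, a nuclear and a cytoplasmic fraction), of wild-type HEK293, an embryonic kidney line, and of wild-type HUES66, a human embryonic stem cell line, with no treatment labelled. The other 14 libraries were HUES66 with doxycycline at 1 ug/ml: control libraries labelled WT and knockdowns (KD) of the splicing factor RBFOX2, either total or of its N-short or N-long isoform, by Cas13d, an RNA-cutting enzyme that a guide RNA directs to a transcript. At 24 hr, both sets held the 2 isoform knockdowns, and set 1 also total KD and set 2 also a control. At 48 hr and at 96 hr there was 1 library of each of the 4 conditions, prepared as 1 series by their library names, while the 24 hr sets belong to 2 other series. The labels do not say whether libraries came from separate cultures, so p-values measure the spread between these libraries, which may be technical.

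Libraries held 6067903 to 26402722 gene-assigned reads, the fewest in the A375 nuclear fraction. The stem cell genes POU5F1, LIN28A and DNMT3B marked the HUES66 library at 1079, 324 and 1571 CPM and were at 0.634, 0.127 and 5.20 CPM in A375 total RNA. In A375 the neural crest factors SOX10 and MITF were at 107 and 41.6 CPM, but the pigment genes PMEL and DCT were at 0.507 and 0.380 CPM, and PMEL was at 50.6 CPM in HUES66. RBFOX2 was at 126 to 133 CPM in 3 controls, 51.1 to 83.3 in 3 total KD, 113 to 128 in 4 N-short KD and 76.7 to 92.7 in 4 N-long KD libraries. The fitted log2 change of RBFOX2 was -0.82 (SE 0.08, adjusted p = 8.61e-09), -0.06 (SE 0.07, adjusted p = 0.999) and -0.57 (SE 0.07, adjusted p = 2.73e-05) against control, so RBFOX2 was lower in total KD and N-long KD, while its gene reads did not separate N-short KD from control.

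The coding parts of the alternative last segments of ITGA6 and ITGA3 are shown because the choice between them in ITGA6 differed between the cell lines. In each gene an A exon, when included, brings its own stop codon. When it is skipped, the reading frame runs into the B segment further downstream. Sequences are those of GENCODE 29 transcripts on GRCh38, plus strand, 5′ to 3′, from the first base of the exon to the stop codon, which is in capitals.
ITGA6 A tail, chr2:172501772-172501879: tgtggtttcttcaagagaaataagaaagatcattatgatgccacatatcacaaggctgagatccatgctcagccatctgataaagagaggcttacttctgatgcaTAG
ITGA6 B tail, chr2:172504091-172504252: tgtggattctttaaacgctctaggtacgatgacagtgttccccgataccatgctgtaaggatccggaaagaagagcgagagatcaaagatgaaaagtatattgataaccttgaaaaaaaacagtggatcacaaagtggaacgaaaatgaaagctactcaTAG
ITGA3 A tail, chr17:50088225-50088335: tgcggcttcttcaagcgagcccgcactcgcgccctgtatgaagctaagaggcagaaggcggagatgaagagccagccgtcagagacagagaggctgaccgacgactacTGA
ITGA3 B tail, chr17:50089110-50089265: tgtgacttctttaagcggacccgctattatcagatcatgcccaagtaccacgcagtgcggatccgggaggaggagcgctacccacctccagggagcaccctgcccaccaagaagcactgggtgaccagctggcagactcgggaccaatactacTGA
The A tails have 105 (ITGA6) and 108 (ITGA3) coding bases before the stop, and the B tails 159 and 153. In a global alignment of the coding bases the A tails of the 2 genes were identical at 61.4% of aligned positions and the B tails at 57.1%, while the A and B tails within a gene were identical at 46.9% (ITGA6) and 51.6% (ITGA3). By this share the same form in the other gene was closer than the other form in the same gene. The share counts gap positions, so it falls where 2 tails differ in length. In identical bases the B tails matched at 97, but the A tails at 70, against 75 (ITGA6) and 79 (ITGA3) for A and B within a gene. For the A tails the order thus depends on the measure.

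A375 made mostly the A form of ITGA6, HUES66 almost only the B form, and HEK293 both. The A exon of ITGA6 is 130 nt long, ends the coding sequence, and was included in 72.8% of reads in A375 total RNA (126 inclusion reads, the mean over its 2 junctions, and 47 skipping reads; 95% Wilson interval 65.8 to 78.9%). In HEK293 it was included in 44.9% (22 and 27 reads; 31.9 to 58.7%), and in wild-type HUES66 in 8.61% (18 and 191 reads; 5.52 to 13.2%). The 3 intervals do not overlap. They cover counting error only, and with 1 library per line there is no test. By the labels the HUES66 cells were also grown in another medium, on plates coated with the matrix Geltrex, so HUES66 and its culture cannot be told apart, here or in the gene levels. The A375 libraries form a series of their own by their library names, so A375 and its series cannot be told apart either. HEK293 shares its series with the 24 hr set 2 of HUES66, where the A exon was included in 4.55% (control), 0% (N-short KD) and 4.76% (N-long KD) of reads, all below the 44.9% of HEK293.

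Both fractions of A375 were close to its total RNA. Inclusion of the A exon was 75.0% in the nuclear library (153 and 51 reads; 68.6 to 80.4%) and 70.6% in the cytoplasmic library (24 and 10 reads; 53.8 to 83.2%). A difference between the fractions was not detectable at this depth. The plot of inclusion by library shows the 3 lines at 3 levels.

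**Figure D1:**
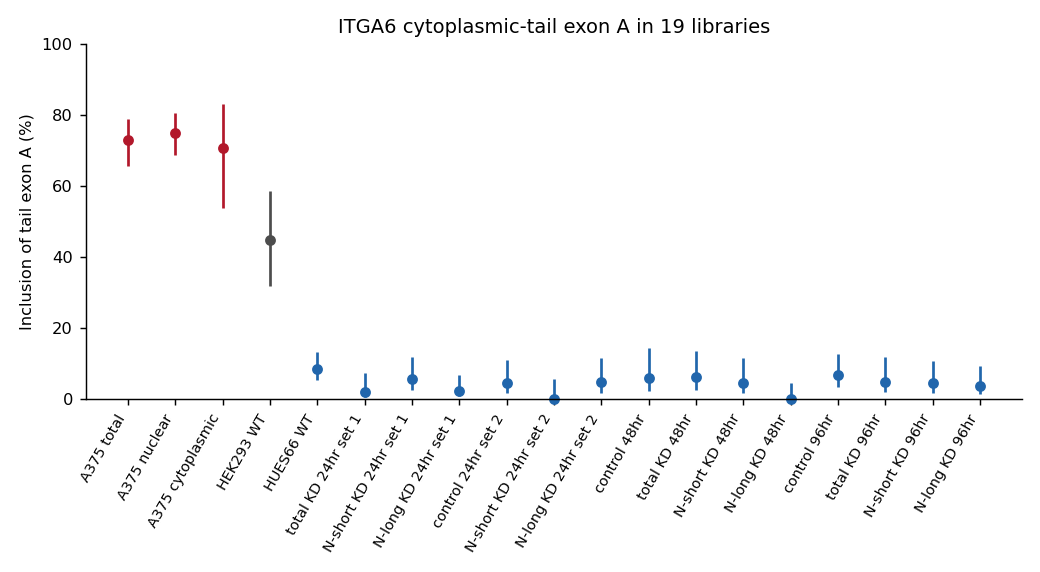
Inclusion of the ITGA6 tail exon A (percent of inclusion plus skipping reads, y axis) in each of the 19 libraries (x axis); points are libraries and bars are 95% Wilson intervals for counting error. A375 libraries lie between 70.6 and 75.0%, HEK293 at 44.9% and all 15 HUES66 libraries at or below 8.61%.

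In the 14 doxycycline-treated HUES66 libraries the A exon of ITGA6 stayed a minor form, at 0 to 6.78% with a median of 4.63%, and pooled at 4.11% (52 inclusion and 1214 skipping reads). The 3 controls were at 4.55% (24 hr set 2), 5.97% (48 hr) and 6.78% (96 hr). Total KD gave 2.13% (24 hr set 1), 6.17% (48 hr) and 4.88% (96 hr). These 2 groups overlap. N-short KD gave 5.77% in 24 hr set 1, 0% in set 2 (0 of 63 reads, which allows up to 4.76%), 4.71% at 48 hr and 4.44% at 96 hr. N-long KD gave 2.38% in 24 hr set 1, 4.76% in set 2, 0% at 48 hr (0 of 78 reads, which allows up to 3.85%) and 3.77% at 96 hr. All 4 conditions overlap. Each library had 0 to 8 inclusion reads, which limits what a comparison can show.

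Tested within libraries by edgeR's quasi-likelihood test, the odds of including the A exon did not pass in any contrast. The log2 odds ratio was -0.49 (95% interval -1.76 to 0.78, adjusted p = 0.941) for total KD, -0.50 (-1.67 to 0.67, adjusted p = 1.000) for N-short KD and -1.04 (-2.27 to 0.19, unadjusted p = 0.0946, adjusted p = 0.98) for N-long KD, each against control. N-long KD against N-short KD gave -0.54 (-1.76 to 0.68) and 96 hr against 48 hr 0.22 (-0.81 to 1.26). A 2-fold lower odds of inclusion lies inside the interval of each knockdown contrast, so these reads do not bound a difference of that size. The wild-type library, at 8.61%, was above each of the 14 treated libraries, but its interval overlaps those of 13 of them. By its library name it shares a series with 24 hr set 1, whose 3 knockdown libraries were at 2.13 to 5.77%. That set holds no library labelled as a control.

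The authors' deposited tables of splicing events give the same exon an inclusion difference, control minus knockdown, of -0.004 to 0.05 over 9 comparisons of 3 knockdowns at 3 times. It was above 0, that is lower in the knockdown, in 8 of the 9, with the authors' adjusted p from 0.721 to 1. Before adjustment the authors' rMATS p at 24 hr was 0.0073 (total KD), 0.0327 (N-short KD) and 0.0089 (N-long KD). It was 0.0148 for N-long KD at 48 hr and 0.279 to 0.819 in the rest. The 3 comparisons of a time share their control libraries. Across all events in the 10 genes, 58 to 72 per table, the authors' tables held 0 at an adjusted p under 0.05 with an absolute difference of at least 0.1. Over all genes 1 to 54 events passed that rule per table. For total KD that was 0.0518% at 24 hr, 0.118% at 48 hr and 0.0837% at 96 hr, for N-short KD 0.00888, 0.00444 and 0.00218%, and for N-long KD 0.00699, 0.0266 and 0.0211%.

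ITGA3 made the A form in every library. Its 142 nt A exon was included in 289 of 289 reads in A375 total RNA, where no skipping read allows a skipping share of up to 1.04%. It was included in 12 of 12 reads in HEK293, which allows up to 25%, and in 41 of 41 in wild-type HUES66, which allows up to 7.32%. Over the 14 treated libraries 325 inclusion and 2 skipping reads gave 99.4% (97.8 to 99.8%), and the fractions gave 99.7% (nuclear) and 99.1% (cytoplasmic). HUES66 thus joined ITGA6 mostly to its B tail and ITGA3 to its A tail.

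Of the subunits of laminin receptors, ITGA6, ITGA3 and ITGB4 were highest in A375 among the 3 lines. The alpha subunit ITGA6 (chr2:172427354-172506282, plus strand) was at 769 CPM in A375 (95% Poisson interval 750 to 789), 167 in HEK293 (159 to 176) and 301 in wild-type HUES66 (294 to 308). ITGA3 (chr17:50055968-50090481, plus strand) was at 838 CPM in A375, 29.2 in HEK293 and 38.3 in HUES66, or 28.7-fold (25.3 to 32.5) and 21.9-fold (20.5 to 23.4) higher in A375. ITGB4 (chr17:75721328-75757818, plus strand), the partner of ITGA6 in hemidesmosomes, was at 334 CPM in A375, 5.23 in HEK293 and 6.70 in HUES66, 64.0-fold (48.0 to 87.3) and 49.9-fold (42.8 to 58.4) higher in A375. In bulk RNA, a difference in the share of cells that express a gene cannot be told apart from a difference in RNA per cell.

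The collagen receptors ITGA1 and ITGA2 lie side by side on chromosome 5 (chr5:52787896-52959210 and chr5:52989326-53094779, plus strand) and differed between the lines in unlike ways. ITGA1 was at 102, 74.7 and 32.95 CPM in A375, HEK293 and HUES66, a 1.36-fold (1.23 to 1.51) difference between the first 2. ITGA2 was at 233, 35.8 and 31.6 CPM, 6.51-fold (5.78 to 7.36) higher in A375 than in HEK293, while the HEK293 to HUES66 ratio of 1.13 (0.992 to 1.29) was within counting error of 1.

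Of the receptors for fibronectin and vitronectin, ITGA5 (chr12:54395261-54419460, minus strand) was at 280 CPM in A375, 91.8 in HEK293 and 74.7 in HUES66. ITGAV (chr2:186590065-186680901, plus strand) was at 297 and 317 CPM in A375 and HEK293 and at 138 in HUES66. Its beta partners ITGB3 and ITGB5 split the lines. ITGB3 (chr17:47253846-47311816, plus strand) was at 114 CPM in A375, 10.0 in HEK293 and 0.303 in HUES66, where it had 8 reads. That was a 375.3-fold difference (190 to 872) between A375 and HUES66. ITGB5 (chr3:124761948-124901418, minus strand) was at 213, 34.1 and 304 CPM, so HUES66 was 8.91-fold (7.95 to 10.0) higher than HEK293. Thus A375 held both ITGB3 and ITGB5, and HUES66 held ITGB5 with almost no ITGB3. These are not all the beta subunits present: ITGB8, outside the 10, was at 410 CPM in A375, 21.7 in HEK293 and 4.28 in HUES66. Of the 14 introns of ITGB3 with reads, 13 are also annotated to the overlapping gene AC068234.1, and their reads were given to ITGB3, so its level includes any reads of that gene.

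ITGB1 (chr10:32900319-33005792, minus strand), the beta subunit shared by most alpha subunits, varied least among the 10, at 450 CPM in A375, 400 in HEK293 and 520 in HUES66. Its A375 to HUES66 ratio was 0.866 (0.835 to 0.899). At a difference of at least 2-fold, 8 of the 10 genes were higher in A375 than in HUES66, where 22.6% of the genes compared were, and 0 were lower, where 22.5% were. Against HEK293, 7 of 10 were higher in A375 (19.3% of genes) and 0 lower (18.9%). Between HEK293 and HUES66, 3 were higher in HEK293 (20.2% of genes), ITGA1, ITGAV and ITGB3, and 1, ITGB5, was higher in HUES66 (19.9%). Within the series that HEK293 shares with the HUES66 24 hr set 2, ITGAV was at 317 CPM against 141 to 152, ITGB3 at 10.0 against 0.198 to 0.439 and ITGB5 at 34.1 against 319 to 338. ITGA1 was at 74.7 CPM against 36.6 to 42.3, which is above all 3 of these libraries but not 2-fold above each. The median log2 ratio of the 10 was 1.77 for A375 over HUES66 and 2.42 for A375 over HEK293, against 0.00 and -0.11 over all genes.

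The spread over HUES66 libraries sets these differences in scale. Over all 15 HUES66 libraries ITGA6 ranged from 265 to 334 CPM (median 307), ITGA3 from 31.6 to 59.7 (median 41.9), ITGB4 from 3.68 to 10.3 (median 5.55) and ITGB5 from 304 to 410 (median 338). The A375 value of ITGA1, ITGA2, ITGA3, ITGA5, ITGA6, ITGAV, ITGB3 and ITGB4 was above the highest of the 15. ITGB5 in A375 was below the lowest. ITGB1 in A375, at 450 CPM, was below the lowest of the 15 as well, but by less than they differed among themselves, 482 to 716 CPM. The share of all genes that lay outside their HUES66 range in A375 was not counted. These positions thus do not set the integrin genes apart from other genes.

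**Figure D2:**
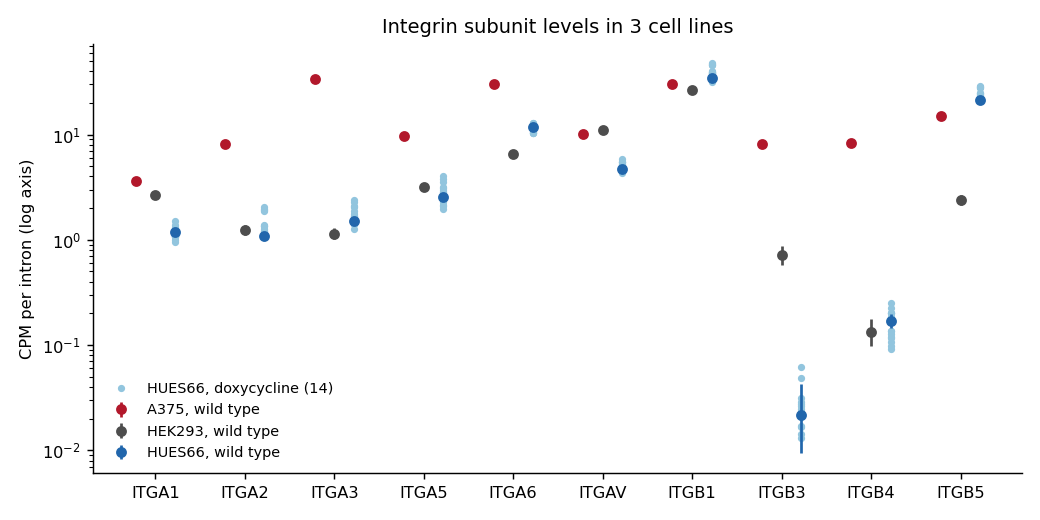
Levels of the 10 subunits as CPM per intron of a reference transcript (log y axis) in A375 total RNA, HEK293 and wild-type HUES66 (large points, bars 95% Poisson intervals for counting error) and in 14 doxycycline-treated HUES66 libraries (small points). ITGB1 lies between 26.5 and 34.4 in the 3 wild-type libraries, while ITGB3 and ITGB4 in A375 stand far above both other lines.

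To compare genes with each other, levels were divided by the number of introns of a reference transcript. Per intron, A375 held most ITGA3 (33.5 CPM per intron), then ITGA6 (30.5) and ITGB1 (29.9), whose intervals overlap. ITGB5 (14.99), ITGAV (10.2) and ITGA5 (9.63) followed, the last 2 with overlapping intervals, then ITGB4 (8.26), ITGB3 (8.12) and ITGA2 (8.04), which overlap, and ITGA1 (3.64). HEK293 was led by ITGB1 (26.5 CPM per intron) and ITGAV (10.9), followed by ITGA6 (6.55), ITGA5 (3.17), ITGA1 (2.67), ITGB5 (2.39), ITGA2 (1.23), ITGA3 (1.14), ITGB3 (0.715) and ITGB4 (0.134). Of these neighbours ITGA1 and ITGB5 overlap, as do ITGA2 and ITGA3. In HUES66 the order by the median of 15 libraries was ITGB1 (38.7 CPM per intron, 31.8 to 47.3), ITGB5 (23.8), ITGA6 (11.96) and ITGAV (4.76), with no overlap between neighbours. ITGA5 (2.83), ITGA3 (1.67), ITGA2 (1.27) and ITGA1 (1.09) overlapped from each to the following one, ITGA1 did not overlap ITGB4, and ITGB4 (0.136) and ITGB3 (0.0230) came last.

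All 10 integrin genes were far higher in the nuclear than in the cytoplasmic library of A375. ITGA6 was at 1208 CPM in the nuclear library, 74.1 in the cytoplasmic and 769 in total RNA, a ratio of 16.3 (15.4 to 17.2). ITGAV had the highest ratio, 26.8 (24.1 to 30.0), with 476 and 17.8 CPM. ITGB5 had the lowest, 6.08 (5.64 to 6.56), with 308 and 50.7 CPM. At least 2-fold higher in the nuclear library were 10 of 10, against 22.8% of 12759 genes, and 0 were as much higher in the cytoplasmic one, against 19.1%. The median log2 ratio was 3.51 for the 10 and -0.11 for all genes, and the 10 lay between percentiles 91.9 and 99.8 of all genes. Total RNA lay between the fractions for all 10, and the share of all genes for which it did was not counted.

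The difference ran along whole genes. Of the introns that had 10 or more reads summed over both libraries, all 247 were higher in the nuclear library and 246 at least 2-fold. The exception was an intron of ITGB1 that joins a leader exon (chr10:32932601-32933350), with 3 nuclear and 10 cytoplasmic reads. Introns of the same gene are readings of the same transcripts, so these counts follow from the gene ratios. The share over all introns was not counted.

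Lists of related genes are set beside all genes, of which 22.8% were at least 2-fold higher in the nuclear and 19.1% in the cytoplasmic library. Of 10 membrane partners, such as the tetraspanins CD9 and CD151, 10 were at least 2-fold higher in the nuclear library (median log2 ratio 2.67). This list also holds PLEC (log2 ratio 3.26), the gene of plectin, which is a cytoplasmic protein. At least 2-fold higher as well were 16 of 18 matrix ligands with enough reads, such as laminin and collagen chains (median 3.71). So were 8 of 9 other integrin subunits (median 2.92), all but ITGAE. Of 28 cytoplasmic partners of integrins, such as talin and kindlin genes, 4 were higher in the nuclear library and 6 in the cytoplasmic (median -0.39), shares below and near those of all genes. By the labels' protocol the cytoplasmic fraction is the supernatant of a lysis in low salt with a detergent, and the nuclear fraction is the washed pellet.

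**Figure D3:**
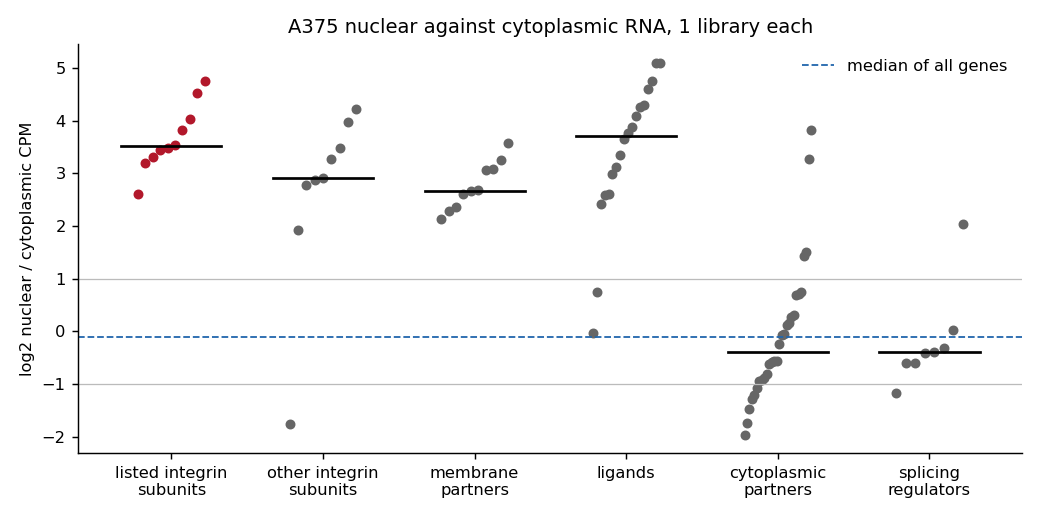
Log2 ratio of nuclear to cytoplasmic CPM in A375 (y axis, 1 library each) for genes with at least 20 reads in the 10 integrin genes (red) and in lists of related genes (grey); black bars are list medians, the dashed line the median of all genes, and grey lines mark 2-fold. All 10 integrin genes lie at 2.60 or above, and the cytoplasmic partners centre on -0.39.

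In HUES66 cultures most integrin subunits were lower at 96 hr than at 48 hr, and ITGA6 was higher. ITGA6 was at 267, 265, 272 and 266 CPM at 48 hr (control, total KD, N-short KD, N-long KD) and at 334, 307, 320 and 331 at 96 hr. Every 96 hr library was above every 48 hr library. Its fitted log2 change was 0.33 (SE 0.03, adjusted p = 2.72e-11), and it rose in 4 of 4 conditions.

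ITGB4, its hemidesmosome partner, went the other way from a low level, with 8.33, 9.19, 8.39 and 10.3 CPM at 48 hr and 4.68, 4.61, 4.80 and 3.68 at 96 hr in the same order of conditions. It fell by 0.98 on the log2 scale (SE 0.15, adjusted p = 5.80e-07). ITGA3 was at 51.5, 52.4, 59.7 and 57.6 CPM and then at 37.6, 35.0, 39.9 and 42.5, and fell by 0.45 (SE 0.06, adjusted p = 1.67e-07). The groups do not overlap for either gene.

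ITGA5 fell from 109, 117, 102 and 90.7 CPM to 57.4, 61.5, 70.7 and 61.1, a log2 change of -0.68 (SE 0.06, adjusted p = 3.47e-12). ITGA2 fell from 56.8, 54.9, 55.8 and 59.3 CPM to 36.7, 31.2, 34.9 and 34.9, a log2 change of -0.66 (SE 0.06, adjusted p = 4.32e-12). ITGA1, the other collagen receptor, did not pass, at 0.03 (SE 0.07, adjusted p = 0.736), with 30.0 to 30.6 CPM at 48 hr and 26.8 to 31.9 at 96 hr.

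The more abundant ITGB1, ITGAV and ITGB5 changed less. ITGB1 went from 690, 691, 711 and 716 CPM to 589, 557, 579 and 584, a log2 change of -0.23 (SE 0.03, adjusted p = 9.10e-09). ITGAV fell by 0.23 (SE 0.04, adjusted p = 2.65e-06) and ITGB5 by 0.18 (SE 0.03, adjusted p = 8.23e-06). ITGB3 had 2 to 11 reads per library and was not tested.

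In all, 8 of 9 tested integrin genes passed between 48 and 96 hr, 7 lower and 1 higher, where 59.6% of 13393 genes passed, 30% lower and 29.5% higher. All 8 moved the same way in 4 of 4 conditions, and for these 8 the 48 hr and 96 hr libraries did not overlap, as for 49.2% of genes. By intron, 102 of 193 tested integrin introns passed, where 32.7% did. All 17 that passed in ITGA6 rose, and the 85 in ITGA5 (25), ITGA2 (17), ITGB1 (14), ITGB5 (13), ITGAV (9) and ITGA3 (7) fell. The median log2 change of the 9 genes was -0.23, against -0.01 over all genes. The embryonic stem cell markers summed to 3163 to 3312 CPM at 48 hr and 3784 to 4600 at 96 hr, and 7 differentiation markers with reads to 4.84 to 6.33 and 2.54 to 5.59 CPM; their part in the result was not tested.

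The 24 hr sets came from other library series, so they are given as levels only. The 4 libraries of 48 hr were above all 10 other treated libraries for 6 of the 9 genes (ITGA2, ITGA3, ITGAV, ITGB1, ITGB4 and ITGB5), as for 14.6% of genes, and below all of them for ITGA6, as for 8.65%. ITGA6 was at 294 to 317 CPM in set 1 and 307 to 317 in set 2, and ITGB1 at 482 to 517 and 584 to 614. For ITGA6 the 24 hr values were thus nearer to those at 96 hr than to those at 48 hr.

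**Figure D4:**
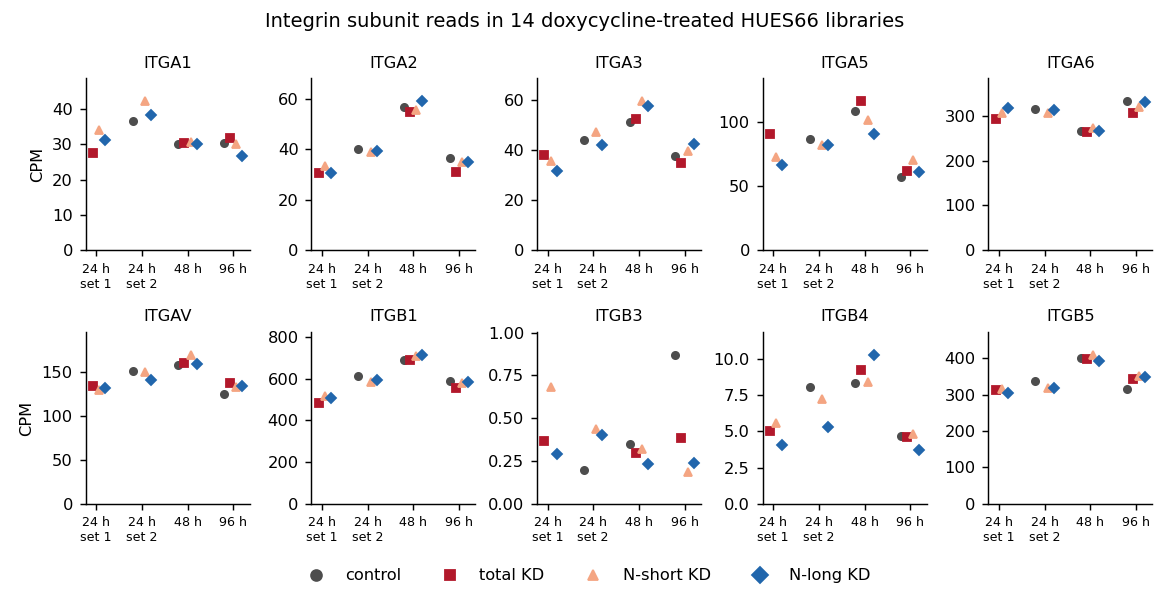
CPM (y axis, from 0) of the 10 subunits in the 14 doxycycline-treated HUES66 libraries by library set (x axis) and condition (symbols); each point is 1 library. ITGA6 is lowest at 48 hr, 265 to 272 CPM, while ITGA2, ITGA3, ITGAV, ITGB1, ITGB4 and ITGB5 are highest there.

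Counts of pathway genes between 48 and 96 hr are read against the 59.6% of all genes that passed, 30% lower and 29.5% higher. Of 18 ligands tested, 13 fell and 1 rose (median log2 change -0.46), led by the matricellular proteins CYR61 (-1.50, SE 0.10, adjusted p = 5.49e-15) and CTGF (-1.0, SE 0.08, adjusted p = 9.05e-13) and the laminin chain LAMA1 (-0.92, SE 0.03, adjusted p = 3.71e-22). Of 10 membrane partners 4 fell and 2 rose, with CD151, a tetraspanin bound to laminin-binding integrins, at -0.74 (SE 0.06, adjusted p = 2.00e-12). Of 30 cytoplasmic partners 8 rose and 7 fell, among them the tensin TNS2 (1.39), the parvin PARVB (-0.95) and the kindlin FERMT1 (0.84). Of 6 other integrin subunits tested 2 fell, ITGA2B by 2.19 (SE 0.15, adjusted p = 2.15e-14) and ITGA4 by 0.55 (SE 0.14, adjusted p = 0.00134). The share that passed was near that of all genes for membrane partners, and below it for cytoplasmic partners and other subunits.

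No integrin gene passed the test in any RBFOX2 knockdown. In total KD, 0 of 9 tested genes passed, where 2.28% of all genes did. At an unadjusted p under 0.05 there were 3, where 13.0% of all genes were. For N-short KD and for N-long KD 0 of 9 passed, against 0.00747% and 0.0224%. At an unadjusted p under 0.05 there were 0 and 0, against 4.05% and 4.44% of all genes. N-long KD against N-short KD gave 0 of 9, against 0.0149%, and 1 at an unadjusted p under 0.05, against 5.07%. DESeq2 also gave 0 in each of these 4 contrasts.

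The 3 genes with the lowest p in total KD were ITGA6, ITGB1 and ITGA5. ITGA6 was at 317, 267 and 334 CPM in the controls of 24 hr set 2, 48 hr and 96 hr, and at 294, 265 and 307 CPM in total KD of 24 hr set 1, 48 hr and 96 hr. The groups overlap, and the fitted log2 change was -0.09 (95% interval -0.16 to -0.01, adjusted p = 0.278). ITGB1 was at 614, 690 and 589 CPM in the controls and at 482, 691 and 557 in total KD, with a log2 change of -0.08 (-0.14 to -0.01, adjusted p = 0.292). ITGA5 was at 86.5, 109 and 57.4 CPM and at 91.1, 117 and 61.5, with a log2 change of 0.15 (0.01 to 0.29, adjusted p = 0.343). The groups overlap for these genes as well. The control and total KD libraries at 24 hr lie in different sets, so the fit compares them through the isoform knockdown libraries that both sets hold.

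Over all 9 genes the fitted change lay between -0.13 and 0.15 for total KD, between -0.04 and 0.12 for N-short KD and between -0.17 and 0.06 for N-long KD. The intervals reached from -0.39 to 0.33, from -0.33 to 0.32 and from -0.50 to 0.20, the widest bounds all being those of ITGB4 but for the last upper one, of ITGA3. For ITGA6, ITGB1, ITGAV and ITGB5 the intervals of the 3 knockdowns lay between -0.16 and 0.13. By intron, 0 of 193 integrin introns passed in total KD, where 0.459% of all introns tested did, and 11 had an unadjusted p under 0.05. The same count was 0 of 193 for N-short KD (0.0108% of introns, 6 unadjusted), for N-long KD (0.043%, 7 unadjusted) and for the difference of both isoform knockdowns (0.0306%, 7 unadjusted). The share of all introns at an unadjusted p under 0.05 was not counted.

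**Figure D5:**
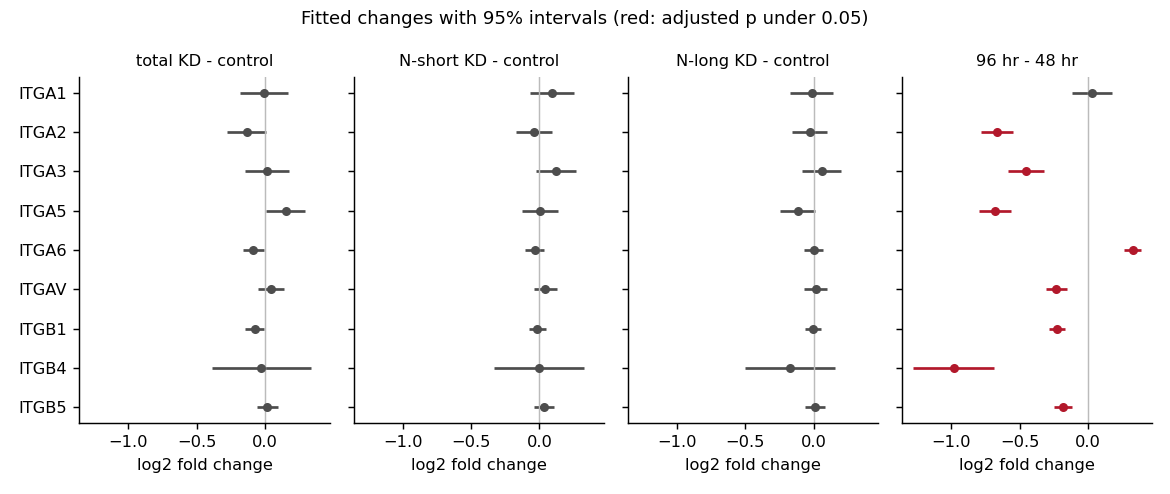
Fitted log2 fold change (x axis) with 95% interval for the 9 tested subunits (rows) in the 3 knockdown contrasts and between 96 and 48 hr; red marks an adjusted p under 0.05. All knockdown points lie between -0.17 and 0.15, and 8 of 9 points in the last panel are red.

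A few genes of the lists passed in total KD, where 2.28% of all genes did. Among membrane partners SLC3A2, the heavy chain of amino acid transporters that binds beta subunits, rose by 0.48 (SE 0.05, adjusted p = 9.18e-09) and the tetraspanin CD9 fell by 0.21 (SE 0.05, adjusted p = 0.0129), 2 of 10 in all. Of 30 cytoplasmic partners 1 fell, a share near that of all genes, the talin TLN2 (-0.40, SE 0.05, adjusted p = 1.36e-06). Of 18 ligands 2 fell, fibronectin FN1 (-0.20, SE 0.05, adjusted p = 0.0452) and the laminin chain LAMC1 (-0.18, SE 0.04, adjusted p = 0.00201). None of these 3 lists had a gene that passed in N-short KD or N-long KD.

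Splicing regulators listed for tail exons differed between the lines beside the ITGA6 form. ESRP1, an epithelial splicing factor, was at 0.127 CPM in A375, 8.01 in HEK293 and 301 in HUES66, and MBNL1 at 141, 53.5 and 14.8 CPM. Most of the list ran in order over these 3 libraries. ESRP2, RBFOX2, PTBP1, PTBP2 and SRSF1 also rose as A exon inclusion fell, and MBNL2 fell with it, like MBNL1. QKI and MBNL3 were highest in HEK293. Such an order is thus not particular to ESRP1 or MBNL1, and the part of these genes in the tail choice was not tested. RBFOX2 was at 83.4, 105 and 127 CPM. Of the 10 regulators, total KD lowered 2, RBFOX2 itself and PTBP2 (-0.21, SE 0.05, adjusted p = 0.0199).

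Among cassette exons of the integrin genes, 27 were annotated with a skipping junction, and 5, in ITGA6, ITGB1 and ITGB5, had enough reads and enough of both forms to be tested. In the contrasts of total KD, of each isoform knockdown (N-short, N-long) and of both isoform knockdowns with each other 0 of 5 passed, where 1.38, 0.0153, 0.597 and 0.428% of 6535 exons did. By edgeR 0 had an unadjusted p under 0.05, and limma on log2 ratios gave 0 as well. Between 48 and 96 hr 1 of 5 passed, lower at 96 hr, where 17.3% did, 8.4% lower and 8.88% higher. This was the 135 nt coding exon of ITGB5 (chr3:124809022-124809156), included in 96.1, 95.1, 95.1 and 95.9% of reads at 48 hr (control, total KD, N-short KD, N-long KD) and in 92.8, 93.1, 93.0 and 92.6% at 96 hr. The groups do not overlap, and the log2 odds ratio was -0.73 (SE 0.20, adjusted p = 0.00730). With limma its adjusted p was 0.121. The 24 hr libraries ran from 90.6 to 95.6%.

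ITGB1 has alternative leader exons ahead of its coding sequence. A 233 nt leader exon (chr10:32933351-32933583) was included in 2.40 to 4.74% of reads in the 14 treated HUES66 libraries, with 4.03 to 4.57% at 48 hr and 2.40 to 3.59% at 96 hr (log2 odds ratio -0.55, SE 0.22, adjusted p = 0.106). In A375 total RNA its downstream junction took 1 of 229 reads from that splice site, 0.437% (0.0771 to 2.43%), and its upstream junction 0. The rounded mean of both junctions is 0 there. By that mean it was included in 0.683% of 293 reads in the nuclear library of A375 (0.187 to 2.45%). In the cytoplasmic library it was included in 7.69% of 104 (3.95 to 14.4%). The last 2 intervals do not overlap. Of the introns that end at the 5′ part of the gene, that from chr10:32935559 used its main partner in 93.2% of reads in the treated libraries, and the next most used one, at 32957758, in 4.47%.

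Other choices with a minor form of at least 5% in some library had few reads. In ITGA3 an annotated intron that joins the start of a shorter intron to the end of a later one (chr17:50070931-50073915) took 8 of 37 reads from its first splice site in wild-type HUES66, 21.6% (11.4 to 37.2%), and 0 of 300 in A375 total RNA, with 7.06% over the treated libraries. In ITGB4 2 introns near the gene's start share their end (chr17:75721564-75724693 and chr17:75721613-75724693). They were used about equally in A375 total RNA, with 15 and 11 of 26 reads. A 150 nt coding exon of ITGB4 (chr17:75755701-75755850) gave 80 of 81 reads into the next exon in A375 total RNA and 33 of 37 in the cytoplasmic library, and the other reads skipped it. In ITGAV a long annotated intron (chr2:186625588-186636081) took 7 of 122 reads from its start site in wild-type HUES66, 5.74% (2.81 to 11.4%), and 2 of 63 in A375.

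Genes whose levels followed the subunits most closely over the 14 treated libraries were found by Pearson's r of log2(CPM + 1) among 13393 genes. For ITGA6 they were CCNA2 (r = 0.984), IGF2BP1 (0.979) and SMC2 (0.978), for ITGB1 MACF1 (0.989), PTPRG (0.984) and ZMYM2 (0.982), and for ITGAV APOBEC3C (0.960), EML6 (0.953) and MCTP2 (0.952). The 14 points share library sets and conditions, so these values describe the libraries and carry no test.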

How the data were processed

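Per the submitters' processing notes, STAR 2.7.1 and SAMtools 1.9 were used, with hg38 as the genome build; the settings and filters behind the junction files are not given in the sources used here. The authors deposited 1 junction file per library, whose values are raw counts of spliced reads per junction, and 9 rMATS tables with their own inclusion difference (a score from -1 to 1), p-value and adjusted p-value, per the file headers. The sign of that difference is control minus knockdown: over exons it correlated at r = -0.700 to -0.582 with the knockdown minus control inclusion computed here. The 69 per-library columns of these tables were not used.

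Junctions were matched by strand and position to GENCODE 29 introns. Introns of several gene names were dropped unless exactly 1 was among the 10 genes. Libraries held 93.4 to 94.8% gene-assigned reads. Genes were tested with edgeR 4.0.16 (TMM, filterByExpr, quasi-likelihood F-test) on counts, with terms for library set and knockdown over 14 libraries, and Benjamini-Hochberg adjustment over 13393 genes; a call is an adjusted p under 0.05. ITGB3 did not pass the filter on low counts. Cassette exons (up to 1000 nt, mean of at least 20 reads, pooled inclusion of 2 to 98%) were tested by inclusion against skipping reads within libraries, where inclusion is the mean of both junctions, rounded. Single libraries were compared by CPM with 0.5 reads added for genes with at least 20 reads in both together, and a call there is a 2-fold difference. Ratios have exact, shares Wilson and levels exact Poisson 95% intervals, which cover counting error only, as does the limit of 3 counts that a count of 0 allows; reads had no molecular identifiers. On simulated counts from these libraries (13209 genes, 6264 exons) the gene test found 85.3% of 197 genes changed 2-fold in total KD. It found 59.2% of 196 genes changed by 0.5 on the log2 scale between 48 and 96 hr. The exon test found 41.8% of 194 exons changed by 2 on the log2 odds scale in total KD. Whether these counts spread between libraries as the measured ones do was not tested. The shares found thus hold for the simulated counts only.

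Library set is a block at 24 hr, where the replicate number marks the library series in the library names; replicate 1 minus replicate 2 of N-short KD and of N-long KD correlated at r = 0.585 over 13393 genes. Alternatives were DESeq2 1.42.0, limma 3.58.1, other filters and scalings, no block, wild-type HUES66 as a control of set 1, and leaving out each library. The rule for names was all 10 genes, both tail exons, other exons that passed or, failing that, up to 2 choices per gene, and up to 3 passing genes per list. The 10 genes and the lists were chosen with earlier results of these data known.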

Additional observations from a re-analysis of the deposited data

How the results depend on the processing

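Fits were repeated with each of the 14 libraries left out in turn, with DESeq2 and with no filter. They were also repeated with wild-type HUES66 as an added control and with no replicate block. In each of these fits, 8 integrin genes were called between 48 and 96 hr and 0 in each knockdown contrast. The block separates replicates of the earliest time only, so leaving it out is hardly a check on the change between 48 and 96 hr. For ITGA6 that log2 change was 0.33 without the block. The total KD change of ITGB1, not called, was -0.15 without the block in place of -0.08, and that of ITGA5 0.08 in place of 0.15. With 1 library left out, that of ITGA5 ran from 0.08 to 0.24 (adjusted p = 0.0793 to 0.789), and the log2 odds ratio of the ITGA6 tail exon from -0.98 to -0.17 (total KD), -0.82 to -0.06 (N-short KD), -1.62 to -0.60 (N-long KD) and -1.01 to -0.05 (N-long KD minus N-short KD), with none called. The ITGA6 tail exon between 48 and 96 hr, not called in any fit, had a log2 odds ratio of -0.065 from the upstream junction alone (adjusted p = 0.9751) and -0.14 to 0.57 with 1 library left out; it was -0.14 without N-long KD at 48 hr, a library with 0 inclusion reads. The 135 nt exon of ITGB5 had -0.72 and an adjusted p of 0.121 with limma on log2 ratios, which called 0 integrin exons between 48 and 96 hr in place of 1; the cause was not tested. With TMM factors 2 genes in place of 1, ITGB5 and ITGA6, were at least 2-fold higher in HUES66 than in HEK293, and the other counts between lines did not change. In the fractions all 10 genes stayed above 2-fold, and their median log2 ratio was 3.62 centred on all genes and 3.55 with TMM factors. Inclusion of the tail exons from 1 junction alone stayed within its interval in the 5 libraries without doxycycline. Depth limits the tail exon of ITGA6 in HUES66 and all splicing of ITGB3 and ITGB4 outside A375.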

Other observations

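Junctions that GENCODE 29 does not list made up 0.553% of spliced reads inside the 10 genes, on 460 junctions. At a minimum of 50 reads over all 19 libraries, a limit chosen after the values were seen, 5 remained. The most used was in ITGA6 (chr2:172489614-172491023), with 470 reads and at least 1 in all 19 libraries. It starts 45 nt before the annotated end of a 174 nt coding exon (chr2:172489485-172489658) and shares the annotated 3′ splice site, so the exon would be shortened by a multiple of 3 bases.

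The share of this junction among it and its annotated counterpart was 13.0% in wild-type HUES66 and 10.4 to 20.3% in the 14 treated libraries, pooled at 13.9%. In A375 it was 7.24% (total), 5.03% (nuclear library) and 5.49% (cytoplasmic library), and in HEK293 6.67%, from 6 reads. Every HUES66 library was above the 4 libraries of the other lines. HEK293 shares its library series with 3 of these HUES66 libraries, while A375 has a series of its own, and the culture medium differed between HUES66 and the other lines.

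The other 4 were in ITGB5 (chr3:124817711-124821312, 151 reads, and chr3:124809157-124821312, 61 reads), ITGB1 (chr10:32935559-32957010, 67 reads) and ITGAV (chr2:186625588-186630799, 51 reads). That of ITGAV ends 3 nt after the annotated splice site and took 4.77% of the pair in the treated libraries. That of ITGB1 had reads in 15 libraries, all of them HUES66.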
